A study of Gallus gallus with 6 samples.

Results

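In migrating chick cranial neural crest, 46 genes were lower by a set margin in cells carrying the AQP-1 FL construct than in control cells. For each of them, the margin lay between every AQP-1 FL library and every control library. These genes were chosen by their measured levels in all 6 libraries of the series. A level is given as CPM, the count of a gene after its library is scaled to a total of 1000000 counts. A gene was taken when its mean over the 6 libraries was at least 5 CPM and its lowest control level was at least 1.3 times its highest AQP-1 FL level. This ratio of the lowest control level to the highest AQP-1 FL level is called the gap below. The table lists 17108 identifiers. A subset of 7396 identifiers reached the minimum of 5 CPM, and the 46 genes are 0.622% of those 7396. Since this choice used the difference between the groups, that difference is described here and not tested as a finding.

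The cells came from White Leghorn embryos whose premigratory neural crest was electroporated with AQP-1 FL or with pMES. The pMES samples are labelled as the overexpression control. Embryos developed for another 24 h, to about Hamburger-Hamilton stage 15, and the stream next to rhombomere 4 was dissected, so both groups share the electroporation, the stage and the dissection. Live YFP-positive cells were sorted from 3 pools of 4 embryos for AQP-1 FL (libraries 1, 2 and 3) and 3 pools of 5 embryos for pMES (libraries 1, 3 and 4). Both groups therefore consist of transfected cells of a single axial level in pooled embryos, as far as the sort separates them.

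Aquaporin-1 is a membrane channel through which water crosses the cell membrane along osmotic gradients. Cranial neural crest cells leave the dorsal neural tube, at the hindbrain for the stream sampled here, after an epithelial-to-mesenchymal transition. They travel in streams into the head and the pharyngeal arches, where they form skeleton, connective tissue, peripheral neurons and glia. Moving cells extend filopodia, thin protrusions built on bundled actin, and the title of the series links water channels to the stability of these protrusions.

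The table names genes by Ensembl identifier. The RefSeq gene list used here held no Ensembl identifiers to match them with, so 0 of them could be given a symbol. The genes are therefore described by their levels, and only 2 are given by identifier. No functions or sequences are given, the level of the AQP1 gene was not looked up, and the labelled cell type was not checked against its markers. The libraries held 23423235 to 29607133 counts. All 3 AQP-1 FL libraries were deeper than the 3 pMES libraries. pMES libraries 1 and 4 stand apart from the rest with 11948 and 11918 genes with at least 1 count, against 13026 to 13416 genes in the other 4 libraries. The lowest count of any of them in any library was 23.

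The 46 genes spanned a wide range of abundance, with means over the 6 libraries from 5.69 to 2868 CPM and a median of 18.1 CPM. The mean pMES level was 1.50-fold to 11.2-fold the mean AQP-1 FL level, with a median of 2.12-fold. In all, 26 of the 46 were more than 2-fold lower in AQP-1 FL cells and 9 were more than 4-fold lower. The genes were chosen for being lower, and the shares of all genes past these limits are not given here. The median log2 ratio of AQP-1 FL over pMES was -1.09 over the 46 genes and 0.07 over all 7396 genes at the same abundance minimum. In sorted pools such as these, less RNA per cell and fewer cells that express a gene cannot be told apart.

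**Figure D1:**
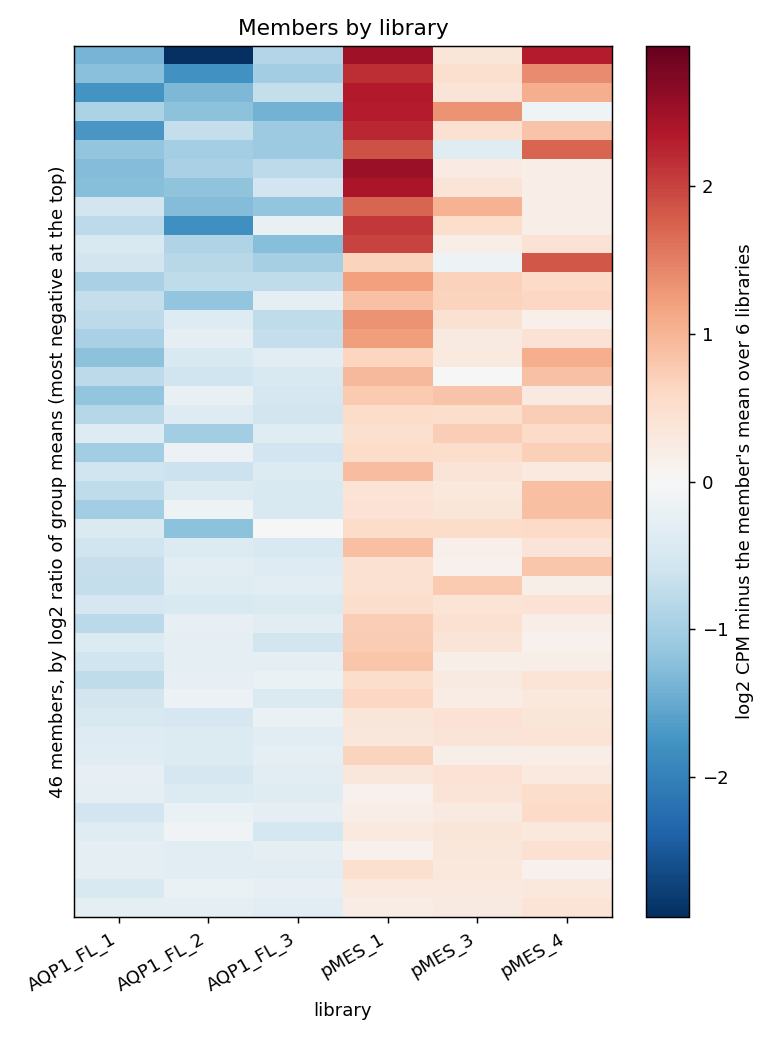
Each row is one of the 46 genes, ordered by its log2 ratio of group means, and each column is a library; the colour is log2 CPM minus the mean of that gene over the 6 libraries. The deepest red cells lie in pMES library 1 at the top, where the genes with the largest ratios stand.

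The gap ran from 1.31 to 2.80 with a median of 1.45, and it was under 1.4 for 16 genes, at least 1.5 for 20 and at least 2 for 5. Just inside the limit, a gene with a gap of 1.31 had 15.99, 15.1 and 15.4 CPM in AQP-1 FL libraries 1, 2 and 3 and 26.3, 23.6 and 20.9 CPM in pMES libraries 1, 3 and 4. Just outside it, a gene with a gap of 1.297 had 352, 339 and 354 CPM in the AQP-1 FL libraries and 460, 504 and 513 CPM in the pMES libraries, in the same order. These neighbours were picked as the nearest to the limit, so their gaps are alike by construction. They show only where the chosen limit falls.

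The gene with the widest gap, 2.80, was ENSGALG00000008969. Its level was 16.6, 11.3 and 19.4 CPM in AQP-1 FL libraries 1, 2 and 3 (488, 319 and 574 counts). In pMES libraries 1, 3 and 4 it was 178, 54.3 and 103 CPM (4621, 1288 and 2409 counts). From lowest to highest the AQP-1 FL libraries were 1.71-fold apart and the pMES libraries 3.27-fold, with pMES library 1 highest and pMES library 3 lowest. The group means were 15.8 ± 4.08 CPM and 112 ± 62.1 CPM (SD, n = 3 each), a 7.07-fold difference. In the edgeR quasi-likelihood fit across all genes its log2 fold change was -2.89 (SE 0.412, adjusted p 0.155). Against pMES library 3 alone, the control nearest to the AQP-1 FL libraries in the number of genes detected, the fitted log2 fold change was -1.86.

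The most abundant of the genes was ENSGALG00000026383, with a gap of 1.76. It had 1950.4, 2010.3 and 2049 CPM in AQP-1 FL libraries 1, 2 and 3, from 57329, 56524 and 60657 counts. It had 3906, 3608 and 3687 CPM in pMES libraries 1, 3 and 4, from 101632, 85637 and 86366 counts. Both groups were tight here, and the distance between them was far larger than the spread within either. The rule itself requires a distance between the groups, so this is a description of the gene. The means were 2003 ± 49.6 CPM and 3734 ± 154 CPM (SD, n = 3 each), so that the AQP-1 FL level was 1.86-fold lower. The edgeR fit put its log2 fold change at -0.97 (SE 0.102), and its adjusted p there, 0.0728, was the smallest of all genes tested. Against pMES library 3 alone the fitted log2 fold change was -0.93.

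This single gene carried much of the RNA of the list. The 46 genes together took 3951, 4075 and 4113 CPM in AQP-1 FL libraries 1, 2 and 3 and 7789, 7123 and 7516 CPM in pMES libraries 1, 3 and 4. Without the most abundant gene the sums were 2001, 2065 and 2064 CPM against 3883, 3514 and 3829 CPM. The rule separates the groups for each gene, and so for these sums too.

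Further genes are described in the order of their gap. The gene at rank 2, with a gap of 2.47, had 31.8, 37.2 and 36.7 CPM in the AQP-1 FL libraries and 143, 99.8 and 91.7 CPM in pMES libraries 1, 3 and 4. It was 3.17-fold lower in AQP-1 FL cells, and its pMES libraries were 1.56-fold apart from lowest to highest, against 1.08-fold for the most abundant gene. The gene at rank 3 had 2.45, 0.818 and 3.48 CPM in AQP-1 FL libraries 1, 2 and 3, against 36.1, 8.13 and 31.3 CPM in pMES libraries 1, 3 and 4. Its ratio of means, 11.2-fold, was the highest of the 46. pMES library 3 lay nearer to the AQP-1 FL libraries than the other controls did, and against it alone the fitted log2 fold change was -1.93 in place of -3.55.

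The genes at ranks 4, 5 and 6 shared a different profile. At rank 4 the levels were 1.50, 3.02 and 2.33 CPM in the AQP-1 FL libraries and 22.9, 6.74 and 8.75 CPM in pMES libraries 1, 3 and 4. At rank 5 they were 1.29, 1.78 and 2.70 CPM against 22.4, 5.77 and 9.35 CPM. At rank 6 they were 2.25, 2.81 and 3.17 CPM against 31.7, 6.45 and 6.19 CPM. In all 3 of these genes pMES library 1 was more than 2-fold above each other pMES library, and the groups still did not overlap. Their means over the remaining libraries were below the minimum of 5 CPM. These 3 genes were thus on the list only through their level in pMES library 1, and the profile is partly set by the rule. Their ratios of means were 5.60-fold, 6.49-fold and 5.39-fold. Without pMES library 1 the fitted log2 fold change went from -2.54 to -1.84 at rank 4, from -2.76 to -2.05 at rank 5 and from -2.49 to -1.28 at rank 6.

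**Figure D2:**
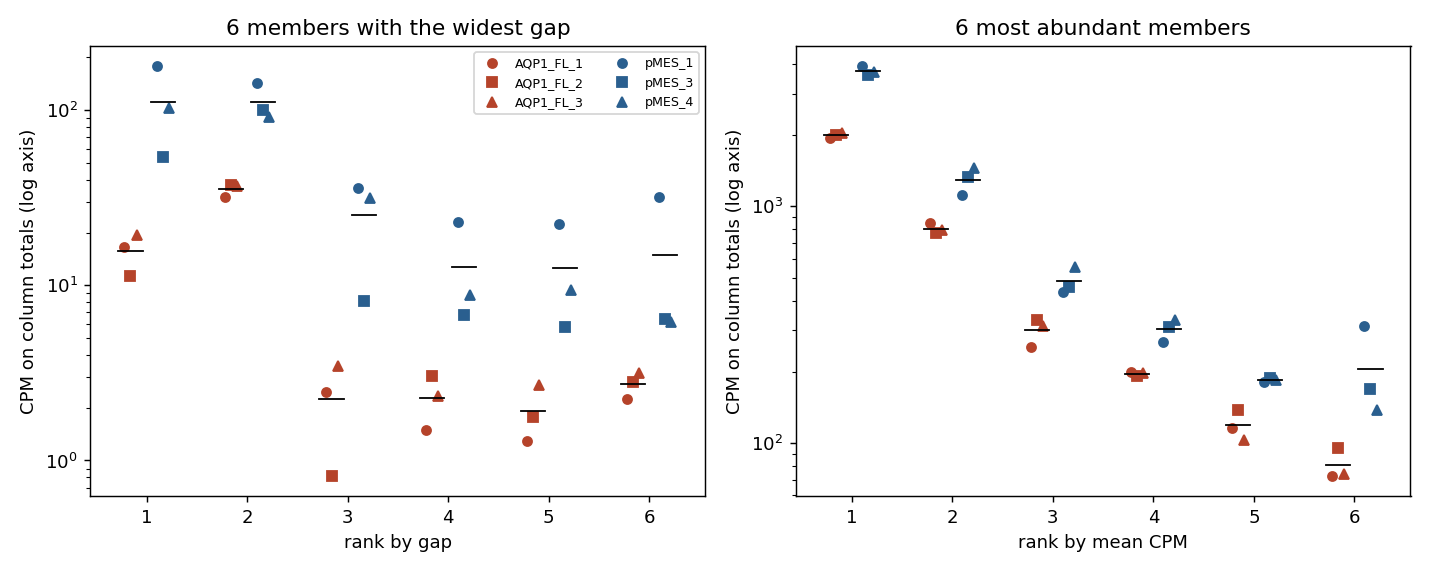
The level of 12 genes in each of the 6 libraries on a log axis, in CPM, for the 6 genes with the widest gap (left, ENSGALG00000008969 at rank 1) and the 6 most abundant (right, ENSGALG00000026383 at rank 1); symbols are libraries, red for AQP-1 FL and blue for pMES, and black lines are the means of 3 libraries. On the right the libraries of a group mostly lie close together, and on the left pMES library 1 is the highest point of every gene.

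The genes at abundance ranks 2 and 3 had smaller ratios of means than the 2 genes with the widest gaps. Their pMES libraries also lay closer together. The 2 genes with the widest gaps, 7.07-fold and 3.17-fold lower in AQP-1 FL cells, stood at abundance ranks 9 and 8. High abundance thus did not always go with a small difference. Over all genes too, the pMES libraries lay closer together at higher abundance. The median ratio of highest to lowest was 1.95 at 5 to 10 CPM and 1.37 at 50 CPM or more. The gene at abundance rank 2 had 847, 772 and 798 CPM in the AQP-1 FL libraries and 1112, 1334 and 1451 CPM in pMES libraries 1, 3 and 4, a 1.61-fold difference of means. The gene at abundance rank 3 had 254, 331 and 312 CPM against 435, 456 and 555 CPM, which is also 1.61-fold. In both of these genes pMES library 1 was the lowest control.

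At abundance rank 4 the AQP-1 FL libraries were nearly level at 199.6, 191 and 198 CPM, against 267, 308 and 330.3 CPM in pMES libraries 1, 3 and 4. At abundance rank 5 the control libraries were the level ones, at 181, 189 and 184 CPM, against 116, 138 and 103 CPM in the AQP-1 FL libraries. At abundance rank 6 the levels were 72.6, 95.5 and 74.2 CPM against 311, 169 and 138 CPM. This last gene was the only one of the 6 most abundant in which pMES library 1 exceeded the other controls by a wide margin, and its fitted log2 fold change went from -1.42 to -1.01 without that library.

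The size of the difference was set beside the abundance of each gene. Spearman's rho between the log2 ratio and the mean CPM was 0.40 over the 46 genes. Both measures enter the rule that chose the genes, and the genes share the same 6 libraries, so this value describes the list only. The 15 genes with a mean of 5 to 10 CPM had a median log2 ratio of -1.23, the 20 genes with 10 to 50 CPM had -1.06, and the 11 genes at 50 CPM or more had -0.85. Over all genes in the same 3 classes the median was 0.08, 0.11 and 0.04. Most of the 15 listed genes of the lowest class had a mean AQP-1 FL level under 5 CPM. They reached the minimum only through their pMES levels, so the larger ratios at low abundance are partly set by the rule.

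**Figure D3:**
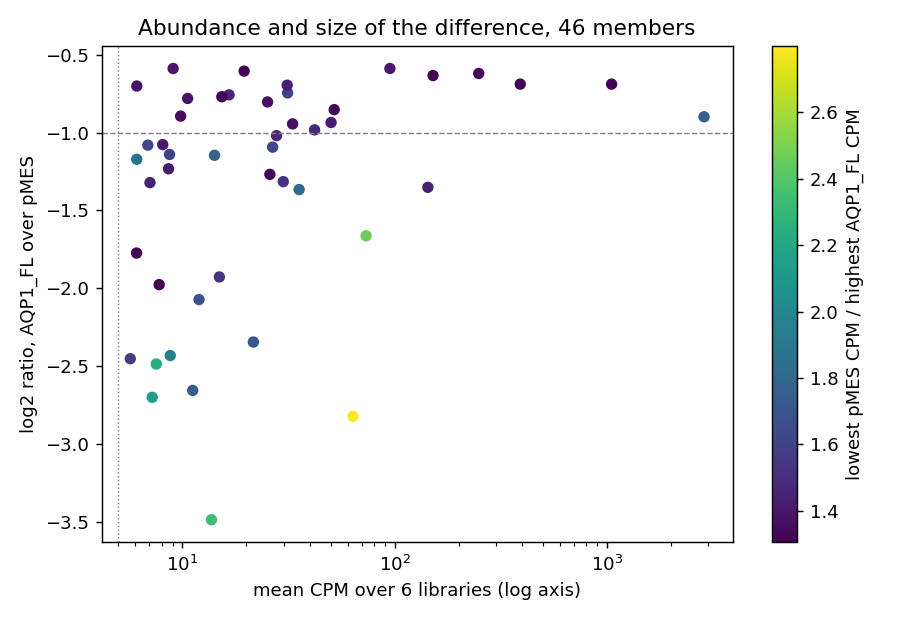
Each point is one of the 46 genes, with its mean CPM over the 6 libraries on a log axis, its log2 ratio of AQP-1 FL over pMES, and its gap as colour; the dashed line marks a 2-fold lower level and the dotted line the minimum of 5 CPM. The genes below a log2 ratio of -2 all have a mean under 100 CPM, and the yellow point is ENSGALG00000008969 at -2.82.

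The genes were next divided by the ratio of group means, a division made after the values had been seen. The 20 genes with a ratio of 1.5 to 2 had a median level in pMES libraries 1, 3 and 4 of 1.78, 1.57 and 1.62 times the mean AQP-1 FL level. Single genes of this class ran from 1.36 to 2.59, 1.43 to 2.32 and 1.35 to 2.42 times it in the same libraries. The class and the gap themselves limit how far its controls can differ. In the 17 genes with a ratio of 2 to 4 the same medians were 2.66, 2.02 and 2.39. In the 9 genes with a ratio above 4 they were 11.2, 3.00 and 3.83. All 9 of these genes were highest in pMES library 1, against 9 of the 20 genes and 8 of the 17 genes with smaller ratios. The level in pMES library 1 is part of the ratio that defines these classes, so a high value there itself moves a gene into the top class. Against pMES library 3 the same 9 genes were 1.65-fold to 5.61-fold lower. Whether the lower number of genes detected in pMES library 1 has a part in these ratios was not tested.

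Each control library could also be set against the AQP-1 FL mean alone. The median log2 ratio over the 46 genes was -1.15 against pMES library 1, -0.86 against pMES library 3 and -0.995 against pMES library 4. The same medians over all genes at the minimum were 0.07, 0.12 and 0.10. More than 2-fold lower levels were found for 29, 18 and 23 of the 46 genes against pMES libraries 1, 3 and 4. The share of all genes past that limit is not given here. Among the 3 controls, pMES library 1 was the highest for 26 of the 46 genes (56.5%), where it was the highest for 35.7% of all 7396 genes. The level in each control is part of the rule, so these shares describe the list only. pMES library 3 was the lowest control for 22 of the 46 (47.8%), against 31.6% of all genes, so it most often set the gap.

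On the AQP-1 FL side, library 1 was the lowest of the 3 for 25 of the 46 genes (54.3%), against 33.2% of all genes, and the highest for 9 (19.6%), against 43.0% of all genes. Libraries 2 and 3 were the highest for 19 and 18 of the 46 (41.3% and 39.1%), against 29.4% and 27.6% of all genes. The highest AQP-1 FL level is part of the rule, so these shares too describe the list only. A level at least 2-fold above both other libraries of the same group was found for 7 of the 46 genes in pMES library 1, for 1 in pMES library 4, and for 0 in pMES library 3 and in each of the AQP-1 FL libraries. Over all genes the share was 1.16% in pMES library 4 and 0.690% in pMES library 3. It was 0.568%, 0.338% and 0.108% in AQP-1 FL libraries 1, 2 and 3. In pMES library 1 the share was 2.91% over all genes and 15.2% among the 46. A high level in pMES library 1 also raises the mean CPM that the rule requires, so this share is partly set by the rule. Without that library the rule kept 41 of the 46, and the others fell below the minimum of 5 CPM. AQP-1 FL library 2 was at least 2-fold below both others for 2 of the 46 genes (4.35%), against 0.311% of all genes. The same held in pMES library 3 for 2 (4.35%), against 2.08% of all genes, and in pMES library 4 for 1 (2.17%), against 3.14%. In pMES library 1 it held for 0, against 2.27% of all genes. For AQP-1 FL libraries 1 and 3 it was also 0, against 0.487% and 0.297%. These shares come from levels that the rule used and are no trait of a library.

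The spread between libraries of a group was measured for each gene as the SD of log2 CPM over 3 libraries. For these SDs the CPM used TMM-scaled library sizes (edgeR's trimmed mean of M-values) and not column totals. Its median over the 46 genes was 0.225 in AQP-1 FL and 0.301 in pMES, beside 0.184 and 0.308 over all genes at the minimum. The pMES spread was the larger for 29 of the 46 genes (63.0%) and for 74.8% of all genes. Among genes of 5 to 10 CPM the median pMES spread was 0.321 for the 15 listed genes and 0.504 for all genes of that class, and the median AQP-1 FL spread was 0.320 and 0.276. From 10 to 50 CPM the pMES medians were 0.335 and 0.355 and the AQP-1 FL medians 0.214 and 0.204. At 50 CPM or more they were 0.213 and 0.240 in pMES and 0.151 and 0.145 in AQP-1 FL. On this scale the listed genes were below all genes in pMES spread and slightly above them in AQP-1 FL spread in each class. Since the rule used these levels, this is a description of the list. On column totals the medians over the 46 genes were 0.216 in AQP-1 FL and 0.312 in pMES. Those of all genes on column totals are not given here. The highest and lowest pMES libraries were at least 3-fold apart for 11 of the 46 genes, and the highest and lowest AQP-1 FL libraries for 2. The share of all genes at that distance is not given here. On column totals the median ratio of highest to lowest was 1.49 in pMES and 1.33 in AQP-1 FL over the 46 genes. It was 1.51 and 1.28 over all genes. A wider pMES group is therefore not particular to the list.

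**Figure D4:**
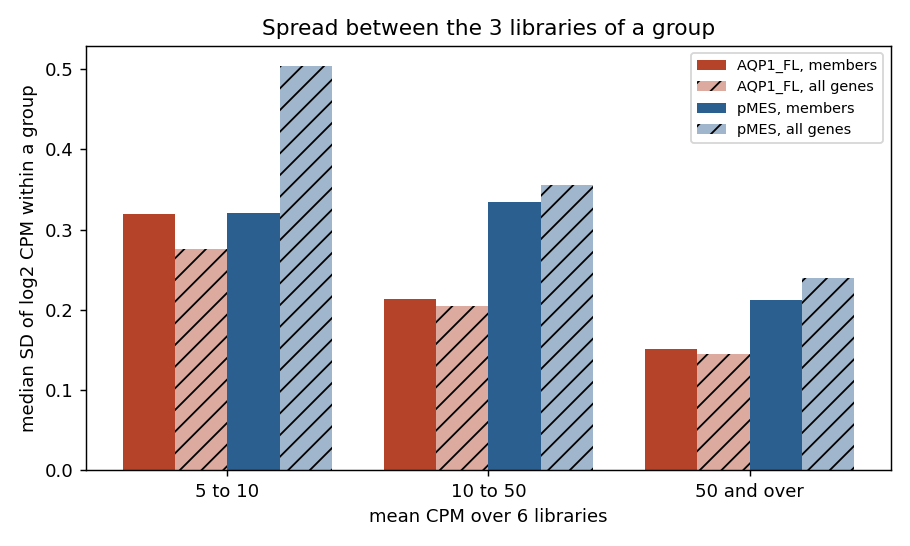
Bars show the median SD of log2 CPM (TMM-scaled library sizes) among the 3 libraries of a group. Listed genes are solid and all genes hatched, in 3 classes of mean CPM. In the class of 5 to 10 CPM the pMES bar of the listed genes is 0.321 and that of all genes is 0.504, and in the class of 50 CPM and over the corresponding bars are 0.213 and 0.240.

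The listed genes form a small part of those whose groups did not overlap. Groups without overlap and lower in AQP-1 FL were found for 414 of the 7396 genes, or 5.60%, and all 46 are among them by construction. In the higher direction 996 of the 7396 genes had groups without overlap. How many genes would separate in this way without a difference between the groups was not tested. The mirrored rule, with the lowest AQP-1 FL level at least 1.3 times the highest pMES level, selected 125 genes, so 73.1% of the genes selected in either direction were higher. This balance depended on the scaling. With TMM-scaled library sizes (edgeR's trimmed mean of M-values) 63 genes were lower and 93 higher, a share of 59.6% higher, and with DESeq2's size factors 70 were lower and 91 higher, a share of 56.5%. With pMES library 3 as the lone control the rule selected 299 lower and 920 higher genes, 37 of the 299 being among the 46. The others of the 46 still cleared the gap against pMES library 3, as the rule requires. They dropped out because their mean over the remaining libraries fell below the minimum mean CPM.

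In the edgeR quasi-likelihood fit across 10819 genes, all 46 had an unadjusted p under 0.05, as did 5.18% of all genes in the lower direction. All 46 also passed the threshold stated for the series, read as an unadjusted p under 0.05 with a fold change above 1.5, which 3.42% of all genes passed in the lower direction. With Benjamini-Hochberg adjustment over all genes 0 of the 46 had an adjusted p under 0.05, and 0% of all genes did. The adjusted p of the 46 genes in that edgeR test ran from 0.0728 to 0.499 with a median of 0.267. Their fitted log2 fold changes ran from -3.55 to -0.66 with a median of -1.16, and the standard errors from 0.102 to 0.659. The median fitted log2 fold change of all genes was -0.01.

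Other tests of the same counts made different numbers of calls. DESeq2's Wald test gave an adjusted p under 0.05 to 37 of the 46 genes and to 0.953% of all genes in the lower direction. limma voom gave it to 1 of the 46, the most abundant gene ENSGALG00000026383, with an adjusted p of 0.0139, and to 0.00924% of all genes. Since the same contrast chose the genes, these counts say how the list overlaps the calls and no more. The adjusted p of ENSGALG00000008969 was 2.23e-11 in DESeq2 and 0.155 in edgeR's quasi-likelihood test.

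**Figure D5:**
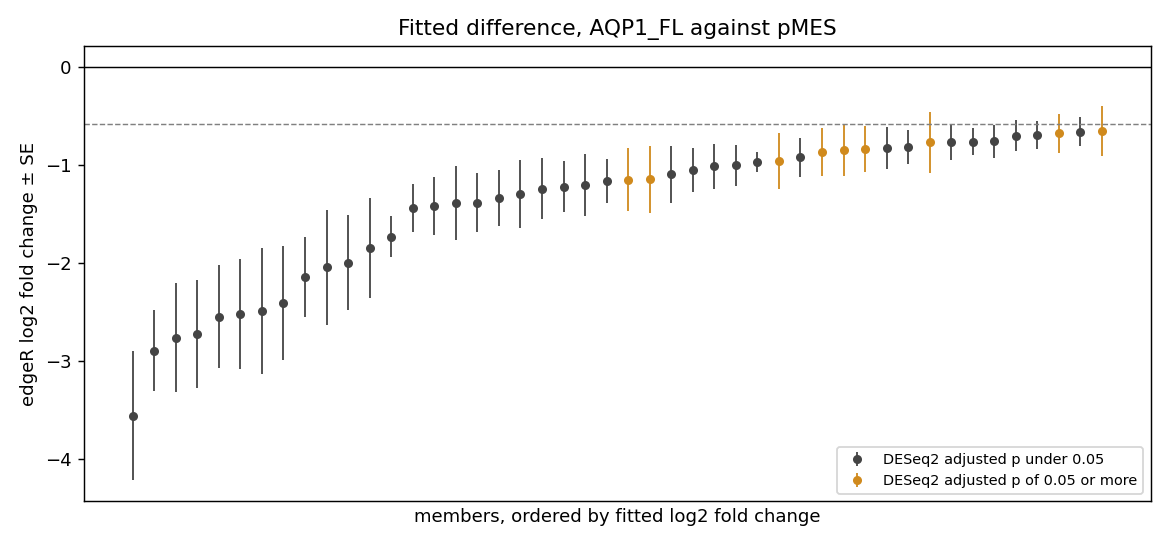
Points are the fitted log2 fold changes of the 46 genes from edgeR's quasi-likelihood fit with bars of 1 standard error, ordered by size, and the dashed line is a 1.5-fold lower level. The points run from -3.55 to -0.66, all below 0; grey marks the 37 genes with a DESeq2 adjusted p under 0.05, and orange the others, which lie to the right among the smaller fitted changes.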

How the data were processed

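The authors deposited raw counts of reads for each Ensembl gene, 1 column per sample. Per the labels' protocols, the authors amplified cDNA with SMART-seq v4, made Nextera XT libraries, and aligned single-end reads of 51 bases with STAR 2.5.2b to galGal4 with Ensembl 84 annotation. The counting tool, strand setting and treatment of multi-mapping reads are not given in the sources used here, so overlapping genes and near-identical copies are uncertain. No molecular identifiers are mentioned, so amplified copies count as separate reads.

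Columns were matched to samples by title. Levels are CPM on column totals, computed here from the counts. Across all genes, edgeR 4.0.16 (R 4.3.3) was run with TMM, filterByExpr, glmQLFTest, all 6 libraries and no covariate, with Benjamini-Hochberg adjustment. The standard error is the absolute log2 fold change divided by the square root of F. SDs of log2 CPM used TMM-scaled library sizes and a prior count of 2. The fit and the rule were also run on simulated data with planted changes, and the outcomes are not given here. The data simulated for the rule had far less spread than the real libraries. Its outcome was thus fixed in advance, and that run checked only the code.

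Alternatives were other scalings and filters, DESeq2 1.42.0, limma voom 3.58.1, a replicate block, and leaving out single libraries. Using pMES library 3 as the lone control was added after seeing the data. The genes and all choices were made with earlier results of these data known. Genes were named by a rule: the widest gap and the highest mean CPM by identifier, and up to 10 others by rank. Planned marker and pathway lists could not be used without symbols. Counting error was not measured apart from the spread between pools.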

Additional observations from a re-analysis of the deposited data

How the results depend on the processing

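The genes were chosen on the same contrast, so the number of them past the threshold of the series, 43 to 46 in the fits with at least 2 libraries a group, says nothing about stability. With pMES library 3 as the lone control, which is assumed to vary like the AQP-1 FL libraries, it was 41, beside 428 of all genes in the lower direction. Their median log2 ratio was -1.16 with TMM-scaled sizes, -1.17 with DESeq2's size factors and -0.86 with pMES library 3 as the lone control, and -1.15 to -0.99 with each library left out. The median SD of log2 CPM over the 46 genes lay between 0.216 and 0.228 in AQP-1 FL and between 0.301 and 0.312 in pMES under 3 scalings, a check added after seeing the data. The number of genes the rule selects, 46, was 70 with DESeq2's size factors. It was 414, 20 and 5 with a gap of 1, 1.5 and 2, and 103 and 11 with a minimum mean of 1 and 50 CPM, where the limits differ by construction. With each library left out it lay between 72 (without AQP-1 FL library 2) and 163 (without pMES library 4), and it was 299 with pMES library 3 as the lone control, where fewer libraries have to clear the gap. It was 94 and 79 without AQP-1 FL libraries 1 and 3, 83 and 160 without pMES 1 and 3.

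Of all genes, 370 were lower past the threshold of the series, 227 when only genes of at least 5 CPM were fitted (fewer genes tested), and between 241 (without AQP-1 FL library 2) and 581 (without pMES library 3) with each library left out. The number of lower genes past an adjusted p of 0.05 was 0 in the edgeR test, 3 without a filter, 103 with DESeq2, 1 with limma voom and 1 with pMES library 3 as the lone control; it was 0 with each library left out. Of the 46 genes these were 3, 37, 1 and 0, and the cause of these differences was not tested. Of the 168 alternative fits of the 12 genes described singly, all on the same libraries, 16 brought the adjusted p under 0.05. These were all 12 genes with DESeq2, 3 without a filter and 1 with limma voom. The sign of the fits was fixed by the choice of genes.

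The replicate numbers 1 and 3 occur in both groups. Deviations of same-numbered libraries from their group means correlated at 0.0567 and 0.0595 across 10819 genes. No differently numbered pair was set beside them, so whether same-numbered libraries share more than a number was not tested. With the replicate block, 44 of the 46 genes and 391 of all genes passed the threshold of the series in the lower direction, and 0 passed an adjusted p of 0.05 in edgeR; AQP-1 FL library 2 and pMES library 4 then stand alone in their blocks and do not bear on the difference. The lowest count of a listed gene was 23; the part of depth in these results was not tested.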

Other observations

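A number of genes missed the list through a single library. At the minimum of 5 CPM, 42 genes cleared the gap of 1.3 in the other 2 pMES libraries but not in pMES library 1. The same held for 110 genes and pMES library 3 and for 113 genes and pMES library 4. On the other side, 48, 24 and 31 genes fell short through AQP-1 FL libraries 1, 2 and 3 alone. Just below the minimum, genes with a mean of 4.85 and 4.78 CPM had gaps of 1.91 and 1.32, and just above it, genes with a mean of 5.69 and 6.09 CPM had gaps of 1.57 and 1.32.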
